A study of Homo sapiens with 6 samples.

Results

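The 77 genes described here encode proteins of the mitochondrial ribosome. They were chosen by symbol alone, as every gene whose symbol was MRPL or MRPS followed by a number and at most 1 of the letters A, B or C, a rule that uses no measured value, although earlier results of these data were known when it was picked. They made up 77 of the 24462 gene symbols in the count files, 48 of them large subunit (MRPL) and 29 small subunit (MRPS) symbols, and another 4 symbols with the same start (MRPL23-AS1, MRPL42P5, MRPL45P2 and MRPS31P5) were left out as an antisense RNA and pseudogenes. RNA came from MDA-MB-231, an established human triple-negative breast cancer line of the claudin-low, mesenchymal kind, 48 h after transfection, and was read as 3′-end tags with the QuantSeq kit. There were 3 groups of 2 libraries. The first received the NC mimic (a negative control), the second a miR-200a mimic at 100 nM, and the third the miR-200a mimic at 100 nM with 30 ng of a pcDNA3.1 plasmid for ELK3, an ETS family transcription factor, which carried the coding region without the 3′UTR. The transfected cells were cultures of 1 cell line, and neither a library of the plasmid alone nor one of the mimic with an empty plasmid was analysed here.

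ELK3 counts did not mark the plasmid group. Its level was 138 and 166 CPM (counts divided by TMM-scaled library size, as CPM) in the NC mimic libraries, 102 and 103 CPM after miR-200a, and 96.2 and 79.2 CPM in the libraries that should also hold the plasmid. The last group was lowest. The plasmid transcript lacks the 3′UTR in which the tags of the cell's own ELK3 mRNA would largely fall, so these counts need not include it and do not measure whether the plasmid was expressed; other measurements of ELK3 were not used here. The label is thus unchecked by these files, and the group is called the ELK3-labelled libraries, or labelled libraries, throughout, and no direction below is credited to ELK3. Of the markers checked for the cell line, VIM lay between 956 and 2463 CPM and AXL between 756 and 1036 CPM, whereas SPARC, too low to be tested, was at 0 in 1 labelled library. CD44, another such marker, had 318 and 300 CPM in the NC mimic libraries, 296 and 337 CPM after miR-200a and 218 and 195 CPM in the labelled libraries. It was the 1 of 5 tested markers of the line called lower (log2 fold change -0.61 ± 0.13 against miR-200a, adjusted p = 0.0151). Of the 5, 3 were negative against miR-200a, the lowest at -0.66, and 2 were positive. The 6 markers of the line summed to 3985 and 4255 CPM with the NC mimic, 3942 and 4119 CPM after miR-200a, and 3549 and 2735 CPM in the labelled libraries. The 9 luminal and epithelial markers summed to 231 and 252 CPM with the NC mimic, 320 and 318 CPM after miR-200a, and 271 and 228 CPM in the labelled libraries. ESR1 was at 0 in each library and CDH1 at most 2.45 CPM, so other markers of the list made up most of these sums. Of the 9, 5 could be tested, and all 5 were positive with miR-200a against the NC mimic (log2 fold changes 0.25 to 3.90, median 0.55). All 5 were negative in the labelled libraries against miR-200a (-1.70 to -0.26, median -0.66), with 0 called either time. Their part in the results below was not tested. The 6 blood and endothelial markers summed to 1.78 to 4.26 CPM, with 3 to 5 of them at 0 in each library. All were too low to be tested, and the endothelial marker CDH5 was at 0 in all 6 libraries. Nothing in the labels says whether the 2 libraries of a group came from separate cultures, so p-values measure only the spread between these libraries.

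The mitochondrial ribosome translates the few proteins encoded in mitochondrial DNA, all of them components of the respiratory chain and ATP synthase. Its RNAs are mitochondrial, but all its proteins are encoded in the nucleus, made in the cytosol, imported, and assembled around the rRNA in an ordered way. Part of the proteins have bacterial counterparts at the catalytic core, and the others are particular to mitochondria and mostly cover the surface. Symbols follow history more than structure: MRPS30 and MRPS18A are now placed in the large subunit, and MRPS36 is now regarded as a component of the α-ketoglutarate dehydrogenase complex. The 13 mitochondrially encoded proteins that this ribosome makes were not analysed here.

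All 77 genes were well above the detection limit. The lowest count in any library was 21, for MRPL23, the highest was 1425, for MRPL21, and all 77 passed the filter on low counts, as did 12650 symbols in all. Library totals ranged from 3055915 to 4868004 counts, so the limit that 3 counts set lay between 0.616 and 0.982 CPM (counting error only). Together the 77 genes took 0.546% and 0.547% of all counts in the NC mimic libraries, 0.541% and 0.539% after miR-200a, and 0.683% and 0.702% in the ELK3-labelled libraries. The last 2 libraries stood above the other 4, which lay close together.

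On the TMM scale the summed level was 5486 ± 46.2 CPM (SD, n = 2) with the NC mimic, 5355 ± 10.6 CPM with miR-200a, and 7008 ± 240 CPM in the ELK3-labelled libraries. The last value was 1.31 times that of miR-200a and 1.28 times that of the NC mimic. Both subunits showed the same order. Against the NC mimic the sum over MRPL symbols was 1.25 times as high and the sum over MRPS symbols 1.32 times as high, and the 2 libraries differed more in the MRPS sum (2935 ± 274 CPM) than in the MRPL sum (4073 ± 34.4 CPM). With 2 libraries against 2, an exact permutation test of such a sum cannot go below p = 0.333, so these sums are given without a test.

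**Figure D1:**
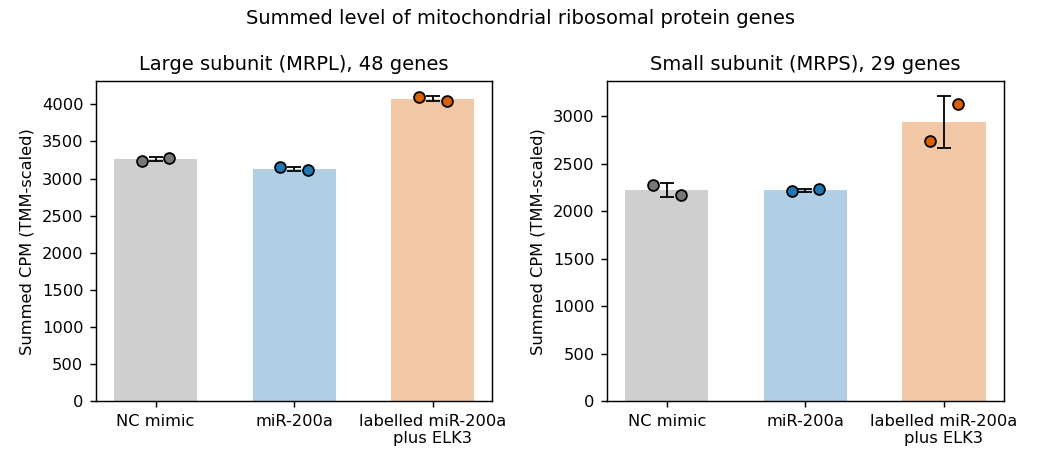
Summed TMM-scaled CPM of the 48 MRPL genes (left) and the 29 MRPS genes (right) in the 3 groups; bars are means, error bars are SDs of 2 libraries and points are libraries. Both ELK3-labelled libraries lie above the other 4 in both panels.

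The first comparison asked whether the miR-200a mimic alone moved these genes. miR-200a is a member of the miR-200 family, which is known for keeping cells epithelial through its targets ZEB1 and ZEB2. A miRNA pairs with mRNA mainly through its seed, bases 2 to 8, shown in capitals in the mature sequence from RefSeq (GRCh38.p14, chr1:1167916-1167937, plus strand).
hsa-miR-200a-3p: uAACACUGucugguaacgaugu
No mitochondrial ribosomal protein gene passed the test against the NC mimic (edgeR's quasi-likelihood test, adjusted p under 0.05 over all 12650 genes), where 34 genes or 0.269% did in all. At an unadjusted p under 0.05 there were 2 (MRPL14 and MRPL53, both lower), a smaller share than the 1169 of all 12650 tested genes. DESeq2 also called 0 of the 77, where it called 0.696% of all tested genes. The median log2 fold change of the 77 was -0.04, beside -0.02 over all tested genes, and single values ran from -0.45 to 0.55. In 7 genes both miR-200a libraries lay above both NC mimic libraries and in 20 they lay below, beside 22.9% and 26.1% of all tested genes.

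The 5 genes with the smallest p-values in that comparison were MRPL14, MRPL53, MRPL17, MRPL37 and MRPL3. MRPL14, a core protein at the face where the subunits meet, had 121 and 132 CPM with the NC mimic and 92.2 and 101 CPM with miR-200a, a log2 fold change of -0.39 ± 0.15 (SE; adjusted p = 0.455). MRPL53 went from 54.1 and 62.3 CPM to 44.0 and 45.0 CPM (-0.38 ± 0.16, adjusted p = 0.496) and MRPL37 from 108 and 107 CPM to 84.5 and 92.1 CPM (-0.28 ± 0.15, adjusted p = 0.636). These 3 did not overlap between the groups but missed the threshold. MRPL17 had 61.0 and 54.8 CPM against 71.8 and 69.9 CPM (0.29 ± 0.15, adjusted p = 0.622), and MRPL3, a core protein near the peptidyl transferase centre, had 63.0 and 73.1 CPM against 80.6 and 90.3 CPM (0.33 ± 0.22, adjusted p = 0.721). MRPL14 alone was called lower when the ELK3-labelled libraries were left out of the fit, where 7.89% of all tested genes were called, and also when only their replicate 1 was left out (7.51% of all). Without their replicate 2, MRPL14 was called lower and MRPL3 higher (7.71% of all). These 1 or 2 of 77 are smaller shares than those of all genes in the same fits.

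Matches to the miR-200a seed (CAGTGTT in the mRNA) were few in these transcripts. In the GENCODE release 29 transcripts, the longest-3′UTR coding transcript of 8 of the 77 genes (10.4%) held one in its 3′UTR, beside 21.8% of the 11241 tested genes with a 3′UTR, and the 3′UTRs were shorter, with a median of 508 nt against 1397 nt. The 8 genes were MRPL22, MRPL28, MRPL42, MRPL44, MRPS7, MRPS11, MRPS25 and MRPS36. The matches of MRPL22 and MRPL42, which an A follows, and that of MRPL44, the match gene with the most negative fold change, are shown with the seed match in capitals (sense strand, positions from the first base of the 3′UTR).
MRPL22, 329 to 335: tggacttgaataCAGTGTTatg
MRPL42, 9640 to 9646: tttatgggggacCAGTGTTaag
MRPL44, 155 to 161: ttaaccaagtcaCAGTGTTttt
Log2 fold changes with miR-200a against the NC mimic were -0.09 ± 0.17 for MRPL22, -0.14 ± 0.25 for MRPL42 and -0.35 ± 0.25 for MRPL44. At the other end MRPL28, at 4.90 and 8.81 CPM with the NC mimic, had 0.55 ± 0.42. None of the 8 passed the test in this comparison.

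The second comparison set the ELK3-labelled libraries against those with miR-200a alone. Of the 77 genes 18 rose and 0 fell, where 7.03% of all tested genes rose and 5.91% fell. The 18 made up 23.4% of the mitochondrial ribosomal protein genes and came from both subunits, 11 of 48 MRPL and 7 of 29 MRPS symbols. The median log2 fold change of the 77 was 0.39, beside 0.02 over all tested genes, and 67 of the 77 were positive. In 56 genes both labelled libraries lay above both miR-200a libraries and in 1, MRPL10, a protein of the stalk base, they lay below, beside 30.2% and 28% of all tested genes. Another 23 genes had an unadjusted p under 0.05 without passing the adjusted threshold, all higher. With the 18 called these made 41 of 77 higher and 0 lower, beside 2083 higher and 1784 lower of all 12650 tested genes. Counts of calls moved with each library, for these genes and for genes in general. Below, a share of all tested genes that were called counts both directions. There were 2 without either NC mimic library (MRPL14 and MRPS12 both times, with 4.38% and 4.40% of all tested genes called) and 0 without either miR-200a library (0.378% and 0.239% of all). Without replicate 1 of the labelled libraries 38 rose and 6 fell, where 17.8% and 17.9% of all tested genes did, and without their replicate 2, 32 rose and 0 fell, where 11.3% and 10.8% of all did. The median stayed between 0.34 and 0.40 in those fits. With only the 2 compared groups in the fit, 2 of the 77 rose (MRPL14 and MRPS12), close to the 2.16% of all tested genes that did. The larger share of the main fit was not seen there. Of the 18 calls, those of MRPL21, MRPL41, MRPL51, MRPS25 and MRPS7 were lost in 6 or more of the 11 other settings tried with all 6 libraries or 2 whole groups.

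**Figure D2:**
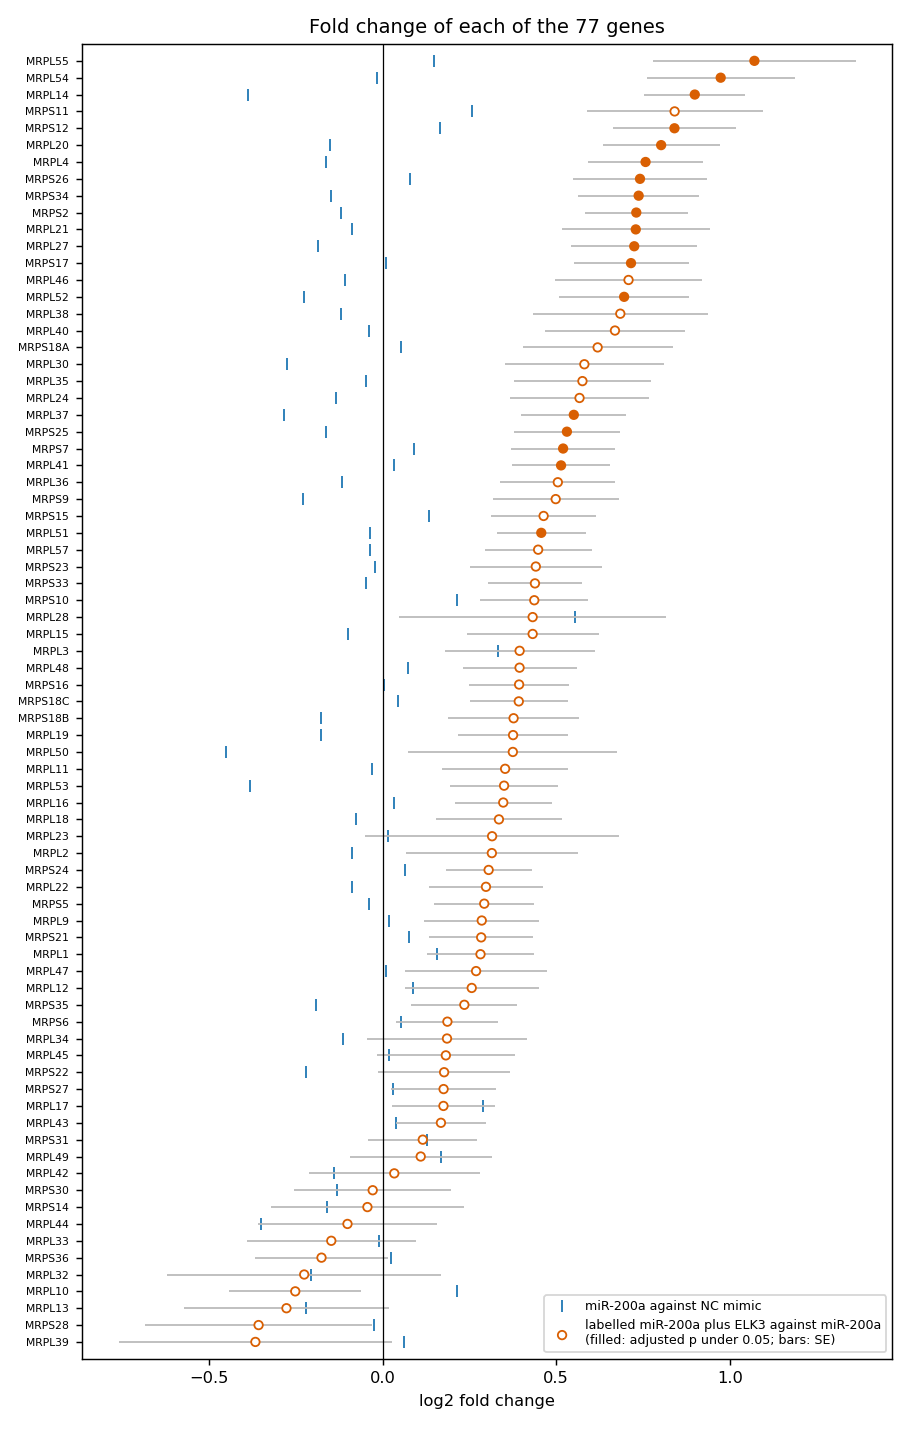
Log2 fold change (horizontal axis) of each of the 77 genes in the ELK3-labelled libraries against miR-200a (circles with SE bars, filled at an adjusted p under 0.05) and in miR-200a against the NC mimic (blue ticks). The circles run from -0.37 for MRPL39 to 1.07 for MRPL55, and 67 lie above 0.

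Among core proteins of the large subunit, MRPL14, MRPL20, MRPL4, MRPL27 and MRPL21 rose. MRPL14 had the smallest p-value of all 77, with 162 and 198 CPM in the labelled libraries above the 92.2 and 101 CPM of miR-200a and the NC mimic values (log2 fold change 0.90 ± 0.15, adjusted p = 0.00628). MRPL20, which binds the large rRNA early in assembly of the bacterial ribosome, stood at 59.9 and 66.6 CPM with the NC mimic, 58.8 and 54.8 CPM with miR-200a and 85.7 and 112 CPM in the labelled libraries (0.80 ± 0.17, adjusted p = 0.0161). For both genes the 2 labelled libraries were the highest of the 6. MRPL4, which lines part of the exit tunnel, went from 36.7 and 33.4 CPM with miR-200a to 54.5 and 64.2 CPM (0.76 ± 0.17, adjusted p = 0.0188), with 40.3 and 38.2 CPM in the NC mimic. MRPL27, whose bacterial counterpart reaches towards the peptidyl transferase centre, went from 51.9 and 53.8 CPM to 72.7 and 102 CPM (0.72 ± 0.18, adjusted p = 0.0292), with 63.5 and 56.4 CPM in the NC mimic. The labelled libraries were again the highest, and replicate 2 was the higher of the pair in each of these 4 genes. MRPL21 was just inside the threshold (0.73 ± 0.21, adjusted p = 0.0493), with 211 and 335 CPM in the labelled libraries.

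The 6 other large subunit genes that rose, MRPL54, MRPL52, MRPL55, MRPL37, MRPL41 and MRPL51, encode proteins that bacterial ribosomes lack. MRPL55 had the largest change of the 77, from 21.4 and 17.5 CPM with miR-200a to 28.9 and 52.9 CPM in the labelled libraries (1.07 ± 0.29, adjusted p = 0.0388), and its labelled libraries were far apart. MRPL54 had 22.9 and 20.6 CPM with the NC mimic, 21.4 and 21.8 CPM with miR-200a, and 35.3 and 49.6 CPM in the labelled libraries (0.97 ± 0.21, adjusted p = 0.0185). MRPL52 had 79.1 and 69.8, 66.9 and 60.5, and 84.3 and 122 CPM in the same order (0.70 ± 0.19, adjusted p = 0.0373). In these genes too both labelled libraries exceeded the other 4. MRPL37, MRPL41 and MRPL51 changed less, with log2 fold changes of 0.55, 0.51 and 0.46.

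In the small subunit, MRPS2, MRPS12, MRPS17 and MRPS7 are core proteins. MRPS12, whose bacterial counterpart sits at the decoding centre, had 41.9 and 33.6 CPM with the NC mimic, 44.4 and 40.8 CPM with miR-200a and 68.4 and 84.1 CPM in the labelled libraries (0.84 ± 0.18, adjusted p = 0.0162). MRPS2 had 92.4 and 87.8, 82.6 and 83.3, and 123 and 153 CPM (0.73 ± 0.15, adjusted p = 0.0142). MRPS17, which binds the small rRNA, had 38.5 and 35.2, 33.8 and 40.5, and 62.0 and 60.2 CPM (0.72 ± 0.17, adjusted p = 0.0226). Of these 3, MRPS17 had labelled libraries at nearly the same level. MRPS34 and MRPS26, which bacteria lack, rose as well. MRPS34, which is needed for a stable small subunit, had 115 and 109, 102 and 100.2, and 138 and 199.5 CPM (0.74 ± 0.17, adjusted p = 0.0236), and MRPS26 had 54.6 and 61.0, 56.3 and 65.4, and 82.4 and 121 CPM (0.74 ± 0.19, adjusted p = 0.0343). MRPS7 and MRPS25 were the others, at 0.52 ± 0.15 and 0.53 ± 0.15.

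Split by number, symbols up to L36 and S21, which hold most of the proteins with bacterial counterparts, gave 9 risen genes of 44 against miR-200a (20.5%). The higher numbers gave 9 of 33 (27.3%), where 7.03% of all tested genes rose. Against the NC mimic the order was the reverse, with 10 of 44 (22.7%) and 4 of 33 (12.1%), where 6.92% of all tested genes rose. The split follows the numbers only, and the difference between the shares was not tested.

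The third comparison set the same labelled libraries against the NC mimic, so it shares 2 libraries with the second and is not an independent repeat of it. Here 14 genes rose and 0 fell (18.2%), where 6.92% of all tested genes rose and 5.95% fell. The median log2 fold change was 0.37, beside 0.01 over all tested genes. In 47 genes the labelled libraries lay above both NC mimic libraries and in 2, MRPL13 and MRPL44, below, beside 29% and 27.6% of all tested genes. The 14 were 6 MRPL and 8 MRPS symbols. As before, the counts moved with each library. There were 0 without either NC mimic library (0.748% and 0.736% of all tested genes called) and 1, MRPS12, without either miR-200a library (4.50% and 4.46% of all). Without labelled replicate 1, 41 rose and 9 fell, where 18.3% and 17.3% of all tested genes did, and without labelled replicate 2, 28 rose and 0 fell, where 12% and 10.4% of all did. Medians lay between 0.30 and 0.42. The calls of MRPL14 and MRPL4 were lost in 6 or more of the 11 other settings.

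MRPS12 had the smallest p-value in this comparison, with a log2 fold change of 1.01 ± 0.18 (adjusted p = 0.00835), and MRPL55 the largest change, 1.22 ± 0.30 (adjusted p = 0.0283). MRPL54 (0.96 ± 0.22), MRPS26 (0.82 ± 0.20), MRPS17 (0.72 ± 0.17), MRPL20 (0.65 ± 0.17), MRPS2 (0.61 ± 0.15), MRPS7 (0.61 ± 0.15), MRPL4 (0.59 ± 0.17), MRPL41 (0.55 ± 0.14) and MRPL14 (0.51 ± 0.15) also rose. MRPS10, MRPS11 and MRPS15, core small subunit proteins, rose against the NC mimic and missed the threshold against miR-200a. MRPS10 had 177 and 168 CPM with the NC mimic, 209 and 191 CPM with miR-200a and 229 and 312 CPM in the labelled libraries, so its log2 fold change was 0.65 ± 0.16 (adjusted p = 0.0257) against the NC mimic and 0.44 ± 0.16 (adjusted p = 0.0894) against miR-200a. For MRPS11 the levels were 9.58 and 12.7, 11.4 and 14.9, and 21.6 and 25.6 CPM (1.10 ± 0.27, adjusted p = 0.0263, and 0.84 ± 0.25, adjusted p = 0.0537). For MRPS15 they were 68.8 and 55.8, 67.5 and 69.9, and 94.3 and 95.2 CPM (0.60 ± 0.15, adjusted p = 0.032, and 0.46 ± 0.15, adjusted p = 0.0698). In all 3 genes the labelled libraries were the highest of the 6 and the miR-200a mean lay above the NC mimic mean.

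The 2 labelled libraries did not agree on every gene. Against the mean of the NC mimic libraries, 71 of the 77 genes were higher in replicate 1 (median log2 difference 0.31) and 58 in replicate 2 (median 0.42). The difference between replicate 2 and replicate 1 had an SD of 0.55 over the 77 genes, beside 0.28 between the NC mimic libraries and 0.16 between the miR-200a libraries, and 28 genes differed by over 0.5 on the log2 scale, beside 4 and 0. Over all tested genes the SDs were 0.56 between the labelled libraries, 0.40 between the NC mimic libraries and 0.34 between the miR-200a libraries, and 31.2%, 14.9% and 11.8% differed by over 0.5. The 77 genes thus lay closer together than genes in general in the NC mimic and miR-200a groups and were spread about as widely in the labelled libraries; the difference was not tested.

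**Figure D3:**
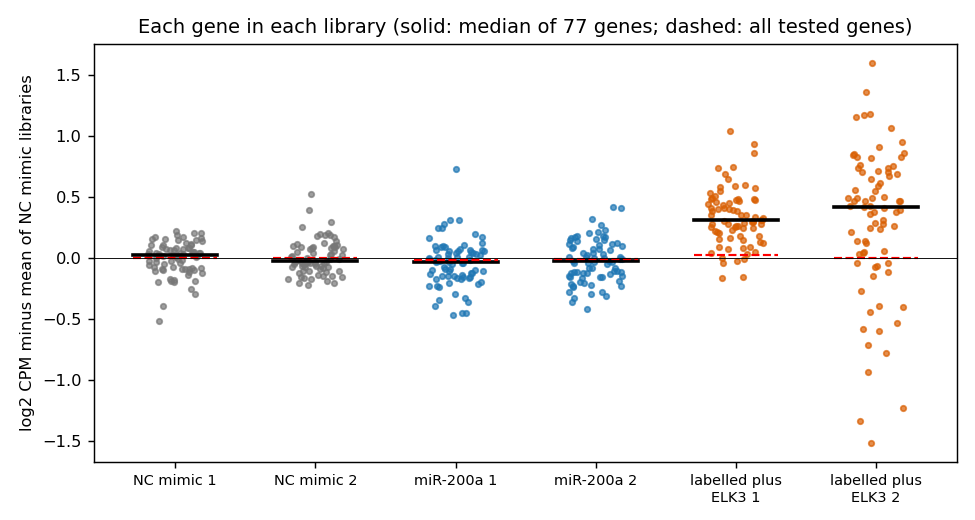
Log2 CPM of each of the 77 genes minus its mean in the NC mimic libraries, for each of the 6 libraries; solid bars are medians of the 77 genes and dashed bars medians of all tested genes. The solid bars of the labelled libraries sit at 0.31 and 0.42, and the points of replicate 2 are spread much more widely than those of replicate 1.

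In each of the 10 genes with a negative log2 fold change against miR-200a, labelled replicate 2 was lower than labelled replicate 1. MRPL32, a protein that is cleaved by a mitochondrial protease before it joins the ribosome, had 42.1 and 49.9 CPM with the NC mimic, 37.2 and 42.2 CPM with miR-200a, and 52.1 and 15.7 CPM in the labelled libraries. MRPL39 had 25.4 and 24.8, 25.1 and 27.3, and 31.0 and 9.64 CPM, and MRPL13 had 108 and 109, 96.8 and 88.8, and 107 and 45.8 CPM. In all 3 replicate 2 was the lowest of the 6 libraries by a wide margin, and replicate 1 was at or near the top. None passed the test in either comparison. The difference of replicate 2 from replicate 1 was -0.97 in MRPS28, -0.95 in MRPL33 and -0.88 in MRPL50 on the log2 scale, while it was 0.86 in MRPL55 and 0.97 in MRPL28. The 10 genes were MRPL39, MRPS28, MRPL13, MRPL10, MRPL32, MRPS36, MRPL33, MRPL44, MRPS14 and MRPS30, from -0.37 to -0.03, and none passed the test.

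The difference between the labelled libraries moved with base composition. GC content was taken over the last 500 bases of 1 transcript per gene, for the 77 genes the longest-3′UTR coding transcript. Counts per gene do not show where the tags fell, so these need not be the bases that were read. Over the 77 genes, the Pearson correlation of GC content across genes was 0.57 with the log2 fold change against miR-200a. It was 0.53 with that against the NC mimic and 0.05 for miR-200a against the NC mimic. The same correlations over 11921 tested genes were 0.09, 0.15 and 0.11. By library, the correlation of GC content with the deviation from the NC mimic mean was 0.17 in labelled replicate 1 and 0.57 in replicate 2. Over the 11921 tested genes these values were 0.0085 and 0.26. With the difference of labelled replicate 2 from replicate 1, the correlation was 0.55 over the 77 genes and 0.33 over the 11921. Genes share each library's depth and preparation, so these are descriptions without a p-value. At or below the members' median GC content of 44.8%, 3 of 40 genes rose against miR-200a, and above it 15 of 37, beside 5.96% and 8.65% of all tested genes in the same ranges. The medians were 0.29 and 0.55, beside -0.02 and 0.08. With each library corrected for GC content, an alternative chosen after the data had been seen, 19 genes rose against miR-200a (17 of the 18 among them) and 17 against the NC mimic, with medians of 0.37 and 0.34. In the same fits 8.17% and 8.11% of all tested genes rose.

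**Figure D4:**
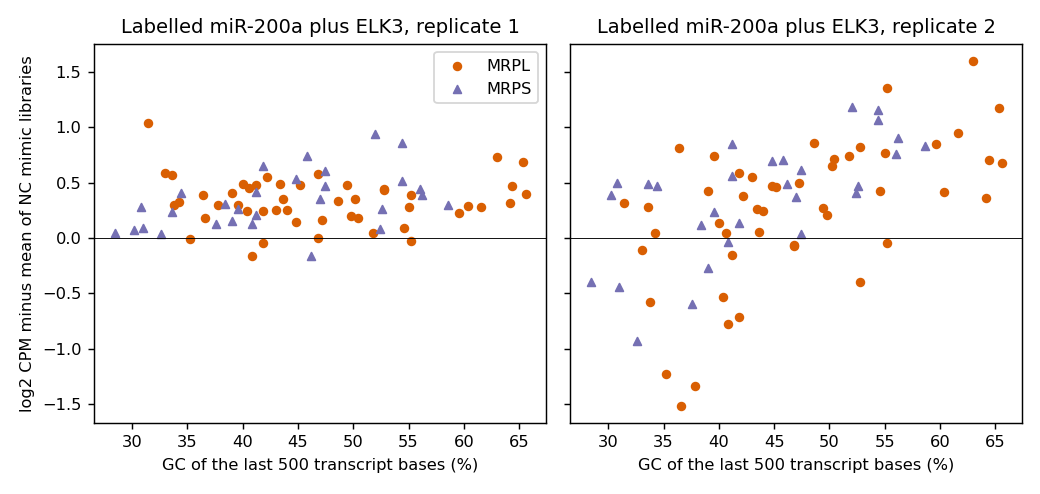
GC content of the last 500 transcript bases (horizontal axis, %) against log2 CPM minus the NC mimic mean for the 48 MRPL and 29 MRPS genes in the 2 labelled libraries. The points of replicate 1 lie mostly above 0 at every GC content (correlation across genes 0.17), whereas those of replicate 2 climb with GC content (0.57).

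Other measures also moved with these libraries. MALAT1, an abundant nuclear RNA, had 14913 and 15252 CPM on total counts in the NC mimic libraries, 19252 and 19269 CPM after miR-200a and 9849 and 8191 CPM in the labelled libraries, and NEAT1, another nuclear RNA, fell as well (log2 fold change -0.59 ± 0.12 against miR-200a, adjusted p = 0.0137). Their part in the result was not tested. Bulk counts cannot tell more RNA per cell from a change in which cells were sampled.

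Where reads could be shared with other loci the values are less certain. In GENCODE release 29, 34 of the 77 genes have named pseudogenes, up to 8 for MRPS21. Exons of 41 overlap an exon of another gene on the same or the opposite strand, and for some only on the opposite strand. How the authors counted reads at such places is not given in the sources used here. Neither applied to 19 genes, of which 9 rose against miR-200a (MRPL14, MRPL21, MRPL27, MRPL41, MRPL52, MRPL54, MRPL55, MRPS26 and MRPS34), with a median log2 fold change of 0.51, and 5 rose against the NC mimic. Of all tested genes 7.03% and 6.92% rose in these comparisons. The 9 genes had a GC content of 50.2% to 65.6% in the last 500 transcript bases, above the median of 44.8% for the 77. The part of GC content in these counts was not tested.

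Promoters of these genes are known to carry binding motifs of ETS family factors, which read a GGAA core, of YY1 and of NRF1. RefSeq promoter windows, from 250 bases before to 50 after the start site (GRCh38.p14), were at hand for 68 of the 77; MRPL2, MRPL10, MRPL13, MRPL15, MRPL21, MRPL23, MRPL35, MRPS28 and MRPS36 had none. The ETS motif CCGGAAGT, on either strand, was in 11 of 68 (16.2%), beside 4.44% of all 27305 promoters and 9.17% of those of tested genes. It was in 5 of the 17 matched genes that rose against miR-200a and in 6 of the 51 that did not. The YY1-type motif AAGATGGC was in 20 of 68 (29.4%), beside 3.03% of all promoters and 5.72% of those of tested genes, and in 15 of the 20 it read in the gene's direction with its first base 7 to 36 bases from the start site, which counts as 1. It was in 5 of the 17 risen genes and in 15 of the 51 others. The NRF1-type motif TGCGCA was in 14 of 68 (20.6%), beside 8.42% and 14.0%, with 0 of the 17 and 14 of the 51, and the E-box CACGTG was in 6 of 68 (8.82%), beside 7.44% and 10.3%. The motifs were searched one by one on both strands, so matches may overlap, and a match is a description of the letters only.

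MRPL20, MRPL27 and MRPL52, which rose and hold the ETS motif, are shown, each 5′ to 3′ in the gene's direction with the ETS and YY1-type motifs in capitals. MRPL20 (chr1:1407244-1407543, minus strand) and MRPL52 (chr14:22829637-22829936, plus strand) hold both motifs, in MRPL52 the ETS motif on the opposite strand, and MRPL27 (chr17:50373135-50373434, minus strand) holds the ETS motif at 2 places.
MRPL20: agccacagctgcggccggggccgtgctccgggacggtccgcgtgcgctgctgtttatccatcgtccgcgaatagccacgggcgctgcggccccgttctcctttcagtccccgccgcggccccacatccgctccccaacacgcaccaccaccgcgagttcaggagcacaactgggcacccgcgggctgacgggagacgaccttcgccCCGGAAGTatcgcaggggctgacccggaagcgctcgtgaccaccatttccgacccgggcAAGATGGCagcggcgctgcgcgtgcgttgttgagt
MRPL27: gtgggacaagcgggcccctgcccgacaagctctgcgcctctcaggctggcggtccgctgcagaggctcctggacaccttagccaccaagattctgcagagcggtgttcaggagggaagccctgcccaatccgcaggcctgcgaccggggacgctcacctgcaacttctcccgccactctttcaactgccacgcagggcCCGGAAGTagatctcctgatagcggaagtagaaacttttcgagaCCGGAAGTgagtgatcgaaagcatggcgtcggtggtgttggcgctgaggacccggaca
MRPL52: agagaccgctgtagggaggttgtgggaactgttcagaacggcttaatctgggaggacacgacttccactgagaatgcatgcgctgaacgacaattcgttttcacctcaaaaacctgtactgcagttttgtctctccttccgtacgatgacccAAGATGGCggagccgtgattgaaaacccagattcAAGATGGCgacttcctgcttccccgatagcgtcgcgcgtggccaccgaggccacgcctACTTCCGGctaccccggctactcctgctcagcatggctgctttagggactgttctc
Beside their levels above, MRPL20, MRPL27 and MRPL52 had log2 fold changes of 0.80, 0.72 and 0.70 against miR-200a. A pair chosen after its values were seen, MRPL46 and MRPS11, lies head to head, with promoter windows that overlap by 181 bases on opposite strands. MRPL46 had 33.6 and 25.8 CPM with the NC mimic, 28.7 and 26.9 CPM with miR-200a and 38.6 and 52.2 CPM in the labelled libraries, and both genes were just outside the threshold against miR-200a (0.71 ± 0.21, adjusted p = 0.0519, for MRPL46 and 0.84 ± 0.25, adjusted p = 0.0537, for MRPS11).

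Genes that act with the mitochondrial ribosome were counted in the same way. None of them passed the test with miR-200a against the NC mimic, where 0.269% of all tested genes did. In the labelled libraries 7.03% of all tested genes rose and 5.91% fell against miR-200a, and 6.92% and 5.95% against the NC mimic. Of 6 ribosomal proteins whose symbols have another form, ICT1, a peptidyl-tRNA hydrolase built into the large subunit (0.71 ± 0.15, adjusted p = 0.0146), GADD45GIP1 (0.87 ± 0.21, adjusted p = 0.0266) and AURKAIP1 (0.43 ± 0.12, adjusted p = 0.0434) rose against miR-200a, and ICT1 and AURKAIP1 rose against the NC mimic. The call of AURKAIP1 against miR-200a was lost in 8 of 11 other settings (adjusted p from 0.0433 to 0.198). Of 24 assembly and rRNA maturation genes 6 rose against miR-200a and 5 against the NC mimic, with 0 lower. MALSU1, which binds the MRPL14 protein and holds the subunits apart during assembly, had 77.9 and 73.4 CPM with the NC mimic, 56.3 and 61.5 CPM with miR-200a and 94.0 and 102 CPM in the labelled libraries (0.73 ± 0.14 against miR-200a, adjusted p = 0.013). Its libraries fell in the same order as those of MRPL14, with miR-200a lowest and the labelled libraries highest. DDX28, a helicase of large subunit assembly, and MTERF4 rose by 1.33 ± 0.29 and 1.30 ± 0.29 on the log2 scale, from 8.10 and 6.32 CPM and from 6.44 and 5.50 CPM. MRM1, which methylates the large rRNA, rose by 1.82 ± 0.44 from 1.87 and 2.24 CPM, near the detection limit.

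The next 3 lists stand beside the same shares of all tested genes, 7.03% higher and 5.91% lower against miR-200a, and 6.92% and 5.95% against the NC mimic. Of 16 translation factors 4 rose in each of these comparisons and 0 fell. Against miR-200a they were TACO1, a translational activator of COX1 (1.14 ± 0.23, adjusted p = 0.014), PDF, which removes the formyl group from new chains (1.11 ± 0.25, adjusted p = 0.022), the elongation factor TUFM (0.79 ± 0.20, adjusted p = 0.0289) and the initiation factor MTIF2 (0.64 ± 0.15, adjusted p = 0.021). Against the NC mimic the elongation factor GFM1 rose (0.84 ± 0.15, adjusted p = 0.00918) and TUFM did not pass (0.40 ± 0.20, adjusted p = 0.195). Of 14 genes of mitochondrial transcription and RNA stability 2 rose against miR-200a, the tRNA 3′ processing enzyme ELAC2 (1.01 ± 0.19) and SLIRP (0.50 ± 0.12), a partner of LRPPRC in mRNA stability, and these and HSD17B10 rose against the NC mimic. Of 24 protein import genes, whose products bring ribosomal proteins into the organelle, 11 rose and 0 fell against miR-200a, and 10 rose and 1 fell against the NC mimic. TIMM8B, a chaperone of the intermembrane space, had 85.7 and 83.5, 75.6 and 85.6, and 164 and 183 CPM (1.11 ± 0.14 against miR-200a, adjusted p = 0.00236), TIMM13 rose by 0.97 ± 0.20, and TOMM40, the channel of the outer membrane, by 0.64 ± 0.14 on the log2 scale. TOMM20, a receptor at the same membrane, was the gene that fell against the NC mimic (-0.64 ± 0.15, adjusted p = 0.025).

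**Figure D5:**
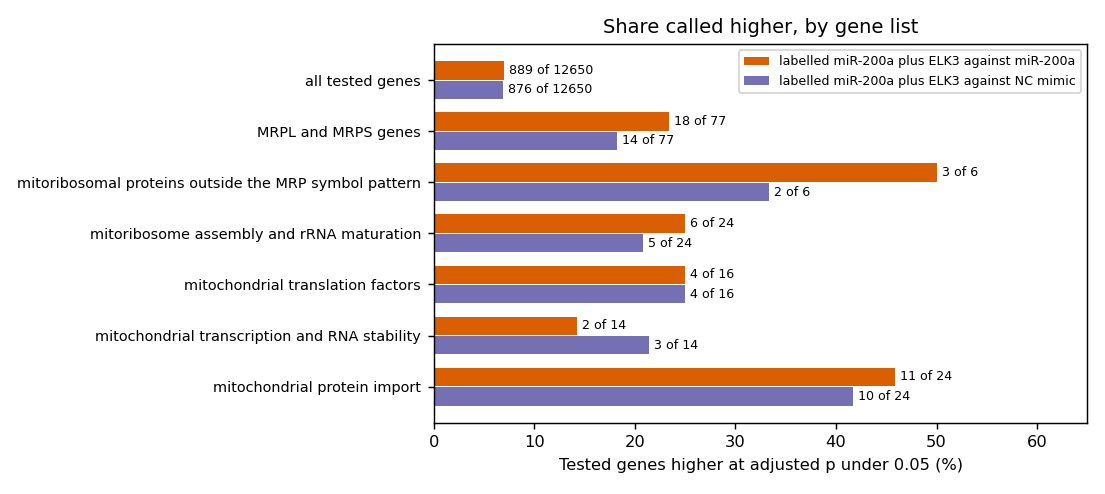
Share of tested genes called higher at an adjusted p under 0.05 (horizontal axis, %) in the ELK3-labelled libraries against miR-200a (orange) and against the NC mimic (purple), for all tested genes, the 77 MRPL and MRPS genes and 5 lists of genes that act with them. The 77 genes are at 23.4% and 18.2%, all tested genes at 7.03% and 6.92%.

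Of 10 regulators of nuclear genes for mitochondrial proteins 1 rose and 1 fell in both comparisons. Of all tested genes 7.03% rose and 5.91% fell against miR-200a, and 6.92% and 5.95% against the NC mimic, close to these counts. PPRC1, a coactivator of the PGC-1 family, had 37.2 and 31.7 CPM with the NC mimic, 30.7 and 29.3 CPM with miR-200a and 57.1 and 50.8 CPM in the labelled libraries (0.84 ± 0.17 against miR-200a, adjusted p = 0.0147). PPARGC1A, which encodes PGC-1α of the same family, had 5.12 and 8.48, 7.47 and 8.76, and 1.18 and 1.88 CPM (-2.38 ± 0.45, adjusted p = 0.011), counts of 5 and 8 in the labelled libraries. The 2 coactivators thus moved in opposite directions. Against miR-200a, NRF1 (0.22 ± 0.31, adjusted p = 0.679), GABPA, an ETS factor (-0.09 ± 0.30, adjusted p = 0.86), and ESRRA (0.26 ± 0.13, adjusted p = 0.189) did not pass the test. MYC had 93.3 and 84.8 CPM with the NC mimic, 82.2 and 85.4 CPM with miR-200a and 78.6 and 27.5 CPM in the labelled libraries (-0.66 ± 0.35, adjusted p = 0.226), with the low value in replicate 2 alone. TFAM, which packages and transcribes mitochondrial DNA (0.41 ± 0.18, adjusted p = 0.153), and the polymerase POLRMT (-0.0026 ± 0.26, adjusted p = 0.997) did not pass either.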

How the data were processed

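The authors deposited raw read counts by gene symbol, whole numbers that had not been normalized, in 1 table for every library (6 in all). The submitters' processing notes name hg19, Bowtie2 and edgeR; the counting tool and annotation are not given in the sources used here, and uneven counting of reads shared with pseudogenes or overlapping genes would shift single values. Lines of 1 symbol were summed (MRPS18B has 7 lines; 286 symbols have several). Symbols kept by edgeR's filter (minimum count 10) entered edgeR's quasi-likelihood test (edgeR 4.0.16, R 4.3.3; TMM; all 3 groups in 1 fit, 3 residual degrees of freedom), with Benjamini-Hochberg adjustment over 12650 symbols and a threshold of 0.05. DESeq2 1.42.0 and limma 3.58.1 were alternatives. The fits were also run on simulated counts with the same spread in every library and no trend with GC content. That run cannot show how the fits behave where a group varies more, as the labelled libraries did. Groups came from GEO's treatment labels. Replicate numbers were not used to pair the libraries in the main fit, and the labels do not say whether same-numbered libraries belong together. The members and lists were chosen with earlier results of these data known. Named members were up to 12 higher and 12 lower by smallest p among those past the threshold in each comparison (the 5 smallest p where fewer than 5 passed), up to 6 called genes per other list, and 7 fixed regulators (NRF1, GABPA, ESRRA, PPRC1, MYC, TFAM, POLRMT), with ELK3 as a check; the members called beyond the first 12, those with the largest difference between replicates, those with a negative fold change and a head-to-head pair were named after their values were seen, as were markers of the cell line. GENCODE 29 and RefSeq, both on GRCh38, gave transcripts (77 of 77 symbols) and promoters (68 of 77); no coordinates were converted.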

Additional observations from a re-analysis of the deposited data

How the results depend on the processing

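No count or median of the 77 genes changed direction under any alternative. Of 1763 values of named genes and called members under alternatives, 1286 kept their side of the threshold, 456 lost it, 21 gained it and 0 reversed. A reversal was counted only where the main fit or the alternative called the gene. Signs of genes called in neither did change, as for GABPA against miR-200a, which ran from -0.46 to 0.16 on the log2 scale without 1 library. Against miR-200a (18 called) upper-quartile scaling gave 10 (4.92% of all tested genes higher). Against the NC mimic (14 called) testing with no filter gave 24 (23 higher and 1 lower, MRPL13, where 7.03% and 6.51% of all were). With limma on quantile-normalized log2 counts there were 0 and 0 (0.846% and 3.09% of all genes called). Only the 2 compared groups in the fit gave 2 and 1, all higher (4.38% and 4.79% of all called, 2.16% and 2.35% higher). For miR-200a against the NC mimic such a fit gave 1 lower (MRPL14), where 7.89% of all were called and 3.17% were lower. The 2-group fits rest on fewer libraries. Over all genes, calls fell from 12.9% in both fits with the labelled libraries and rose from 0.269% in the fit without them. The main fit gives all 3 groups a shared estimate of spread, and the labelled libraries differed most from each other (SD 0.56 over all tested genes, beside 0.40 and 0.34). The cause of the changes under any of these settings was not tested. DESeq2 gave 13 and 12 (4.95% and 5.08% of all tested genes higher). Total counts alone gave 13 and 14 (6.04% and 6.58%), and at least 10 counts in each library 15 and 14 (7.4% and 7.45%). With the replicate number as a block 10 and 9 were called (9.15% and 9.25% of all, with 4.73% higher each time). The labels do not say whether same-numbered libraries belong together. Deviations of same-numbered libraries correlated at -0.00299, -0.0357 and -0.108, which shows no shared replicate effect but cannot tell whether they were prepared together. Crossing the numbers of the labelled pair, chosen after seeing the data, gave 16 and 16 (6.96% and 6.9% of all higher). Without 1 library each, calls ran from 0 to 44, from 0 to 50 and, for miR-200a against the NC mimic, from 0 to 2. Medians moved beyond the replicate spread to 0.324 and 0.3068 with upper-quartile scaling, to 0.3349 against miR-200a with limma, and, leaving out 1 library, within 0.3395 to 0.4043 and 0.2997 to 0.4164. For miR-200a against the NC mimic the median was -0.01943 on total counts, -0.01426 with no filter, -0.02416 with limma, -0.0185 with 2 groups, -0.02353 with GC correction and -0.03075 to -0.01063 without 1 library. A lone library was assumed to vary like the other groups. With 2 libraries a group, small changes were not detectable.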
